A study of Homo sapiens with 12 samples.

Results

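B-cell surface antigens and coreceptors were followed by the messenger RNA of 9 genes, MS4A1, CD22, CD79A, CD79B, CD72, CD37, CD81, CD38 and MME. The genes were chosen by symbol, and all 9 were found among the 23368 symbols that both count tables share. The cells were SUDHL6, an established human line of diffuse large B-cell lymphoma with a germinal centre phenotype, so every value describes 1 cell line. Vehicle cells received 0.01% DMSO for 24 h or 96 h. Treated cells received 200 nM GSK591, which inhibits PRMT5, an enzyme that methylates arginines, for the same times. Each of the 4 groups held 3 libraries of poly(A) RNA, 12 in all. The labels do not say whether these 3 were separate cultures, so p-values here gauge only how far the libraries spread, which may be a technical spread.

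A mature B cell carries an antigen receptor made of membrane immunoglobulin and a signalling pair, CD79A and CD79B, whose cytoplasmic tails hold the activating tyrosine motifs. Coreceptors set how strongly the receptor signals. CD22, a lectin for sialic acid, and CD72, a C-type lectin, carry inhibitory motifs that recruit the phosphatase PTPN6 (SHP-1), while CD81 is a tetraspanin of many cell types that organises membrane partners in B cells. MS4A1 encodes CD20, the target of rituximab. CD37 is a tetraspanin of mature B cells. CD38, an enzyme that consumes NAD, and MME, the peptidase CD10, are used as germinal centre markers in lymphoma typing.

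The libraries held 48.5 to 64.4 M counts (M, mega), except vehicle replicate 1 at 96 h with 548 M. The 9 genes took between 0.788% and 0.956% of all counts of a library, and all 9 passed the filter on low counts at both times. Levels are given as CPM, counts per mega of library counts, after TMM scaling over the 12 libraries. At 96 h the library numbered 2 stood apart in both arms. Its values for the 9 genes lay on average 0.0807 (vehicle) and 0.11 (GSK591) log2 units from the group mean, against 0.0393 to 0.0624 in the other 4 libraries of that time. The 96 h fold changes are therefore also given without both of these libraries, which leaves 2 libraries in each 96 h group. Leaving out the libraries farthest from the group mean narrows the spread through that choice. Genes with an adjusted p under 0.05 then rose from 40.2% to 60.5% of all genes at 96 h. For the difference between times they rose from 24.1% to 43.8%. A p-value that falls in this setting is therefore no independent support. All 6 B-cell markers, PAX5, EBF1, MS4A1, CD79A and CD79B among them, and all 4 germinal centre markers (BCL6, MME, MYBL1 and S1PR2) were above 1 CPM in every group. None of the markers of T cells, NK cells, myeloid cells, fibroblasts or epithelium reached a group mean of 1 CPM. CD3D and CD2 of T cells and DCN of fibroblasts were at 0 in every library.

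Upstream sequence is shown for CD72 and CD22, the 2 genes called at both times, which moved in opposite directions. Each run is the 250 bases before the gene's start in RefSeq, read 5′ to 3′ on the gene's strand, with coordinates of GRCh38.p14. The count tables were made on hg19 and carry no coordinates. Capitals mark the PU box GAGGAA, a core bound by factors of the ETS family such as SPI1 (PU.1) and SPIB, searched on both strands.
CD72 at chr9:35618414-35618663, minus strand: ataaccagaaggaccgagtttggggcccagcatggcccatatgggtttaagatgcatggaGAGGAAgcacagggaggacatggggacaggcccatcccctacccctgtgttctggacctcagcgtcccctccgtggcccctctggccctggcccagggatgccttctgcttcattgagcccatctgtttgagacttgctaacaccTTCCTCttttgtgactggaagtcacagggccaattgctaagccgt
CD22 at chr19:35328937-35329186, plus strand: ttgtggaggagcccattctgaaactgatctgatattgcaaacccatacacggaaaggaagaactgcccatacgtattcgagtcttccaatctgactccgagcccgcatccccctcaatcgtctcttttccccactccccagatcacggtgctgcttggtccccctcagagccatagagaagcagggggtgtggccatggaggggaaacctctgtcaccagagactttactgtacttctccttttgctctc

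The window of CD72 held 2 PU boxes, which start 190 and 45 bases before the gene's start. The window of CD22 held none. The PU box was chosen after the sequences were seen, and 23.6% of 35116 RefSeq promoter windows of the same length hold it. Neither window held the octamer ATGCAAAT (1.63% of promoters), the BCL6 core TTCCTNGAA (1.37%), the EBF1 core (1.06%) or the E-box CAGGTG (17.5%). A match describes the letters and is no measure of binding. CD79A, CD38 and MME also had an entry in the promoter table.

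CD79A and CD79B, the signalling pair of the antigen receptor, were slightly higher in treated cells at 24 h. CD79B read 755, 742 and 766 CPM with vehicle and 844, 802 and 840.2 CPM with GSK591 at 24 h. Its log2 fold change was 0.14 ± 0.02 (SE; adjusted p = 0.000558, edgeR quasi-likelihood test with Benjamini-Hochberg adjustment, as for every adjusted p of the report). CD79A read 1310.5, 1340.5 and 1327 CPM with vehicle and 1398, 1406 and 1396 CPM with GSK591, a log2 fold change of 0.08 ± 0.02 (adjusted p = 0.00813). For both genes every treated library was above every vehicle library. In these bulk samples, a change in the share of cells with a transcript and a change in RNA per cell cannot be told apart. This holds for these and for all genes below.

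At 96 h the spread within groups was wider and neither subunit passed the test. CD79B read 810.3, 756 and 834 CPM with vehicle and 933, 805 and 965 CPM with GSK591, and the groups overlapped through the library numbered 2 of the treated arm. Its log2 fold change was 0.18 ± 0.07 (adjusted p = 0.0771), and without both libraries numbered 2 it was 0.21 ± 0.05 (adjusted p = 0.00134). CD79A read 1232, 1195 and 1279.5 CPM with vehicle and 1311, 1189.6 and 1395 CPM with GSK591, a log2 fold change of 0.09 ± 0.07 (adjusted p = 0.33), and 0.11 ± 0.05 without both libraries numbered 2 (adjusted p = 0.0718). For neither gene was the difference between the times called (96 h minus 24 h, CD79B 0.04, adjusted p = 0.785; CD79A -0.01, adjusted p = 0.957).

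A ratio of 2 genes within a library does not depend on how libraries are scaled. The log2 ratio of CD79B to CD79A counts was -0.60, -0.66 and -0.62 in the vehicle libraries of 96 h and -0.49, -0.56 and -0.53 in the treated ones, which do not overlap. At 24 h it was -0.80, -0.85 and -0.79 with vehicle and -0.73, -0.81 and -0.73 with GSK591, which do overlap. These ratios were chosen after the values were seen and were not tested.

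CD72, the inhibitory C-type lectin, was higher in treated cells at both times and had the largest log2 fold change of the 9 genes at 96 h. At 24 h it read 178, 175 and 180.03 CPM with vehicle and 203, 197 and 198 CPM with GSK591. The 96 h values were 219, 174 and 216 CPM with vehicle and 341, 292 and 344 CPM with GSK591. Every treated library was above every vehicle library of its time, and the lowest value of each arm at 96 h came from the library numbered 2. The log2 fold change was 0.16 ± 0.02 at 24 h (adjusted p = 0.000157) and 0.69 ± 0.10 at 96 h (95% interval 0.47 to 0.91, 1.62-fold, adjusted p = 0.00161). The effect was larger at 96 h than at 24 h by 0.52 ± 0.11 log2 units (adjusted p = 0.00524). Without both libraries numbered 2 the 96 h value was 0.66 ± 0.04 and the difference 0.48 ± 0.04.

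CD22, the sialic acid lectin, was lower in treated cells at both times. It read 968, 1008 and 1018 CPM with vehicle and 929, 952 and 923 CPM with GSK591 at 24 h, and the groups did not overlap. The log2 fold change was -0.09 ± 0.02 (adjusted p = 0.00617). The libraries of 96 h read 1133, 1070.4 and 1110.02 CPM with vehicle and 877, 991 and 901 CPM with GSK591, again without overlap, and the treated library nearest to vehicle was the one numbered 2. The log2 fold change was -0.24 ± 0.07 (95% interval -0.39 to -0.09, adjusted p = 0.0189). This call was lost when vehicle replicate 1 (adjusted p = 0.0724) or 3 (0.0565), or GSK591 replicate 1 (0.0636) or 3 (0.0706), was left out. Without both libraries numbered 2 it was -0.33 ± 0.05 (adjusted p = 3.04e-05). The effect at 96 h was 0.16 ± 0.07 log2 units below that at 24 h, which did not pass the test (-0.16, adjusted p = 0.084), while without both libraries numbered 2 the difference was -0.25 ± 0.04 (adjusted p = 5.24e-05).

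The log2 ratio of CD72 to CD22 counts put both inhibitory lectins on 1 scale. It was -2.44, -2.52 and -2.50 in the vehicle libraries of 24 h and -2.19, -2.28 and -2.22 in the treated ones. The 96 h ratios were -2.37, -2.62 and -2.36 with vehicle and -1.36, -1.76 and -1.39 with GSK591. The treated libraries were above the vehicle libraries at both times, and in the treated libraries of 96 h the ratio was the least negative of the 4 groups. CD72 was called higher and CD22 lower at both times, so this separation follows from the choice of the 2 genes. The ratios of this paragraph were also chosen after the values were seen and were not tested. Against CD79B, the log2 ratio of CD72 was -2.08, -2.08 and -2.09 with vehicle and -2.05, -2.03 and -2.09 with GSK591 at 24 h, which overlap. The CD72 to CD79B ratio at 96 h was -1.89, -2.12 and -1.95 with vehicle and -1.45, -1.46 and -1.49 with GSK591. The 3 treated libraries of 96 h, the one numbered 2 included, lay together here and above all vehicle libraries.

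**Figure D1:**
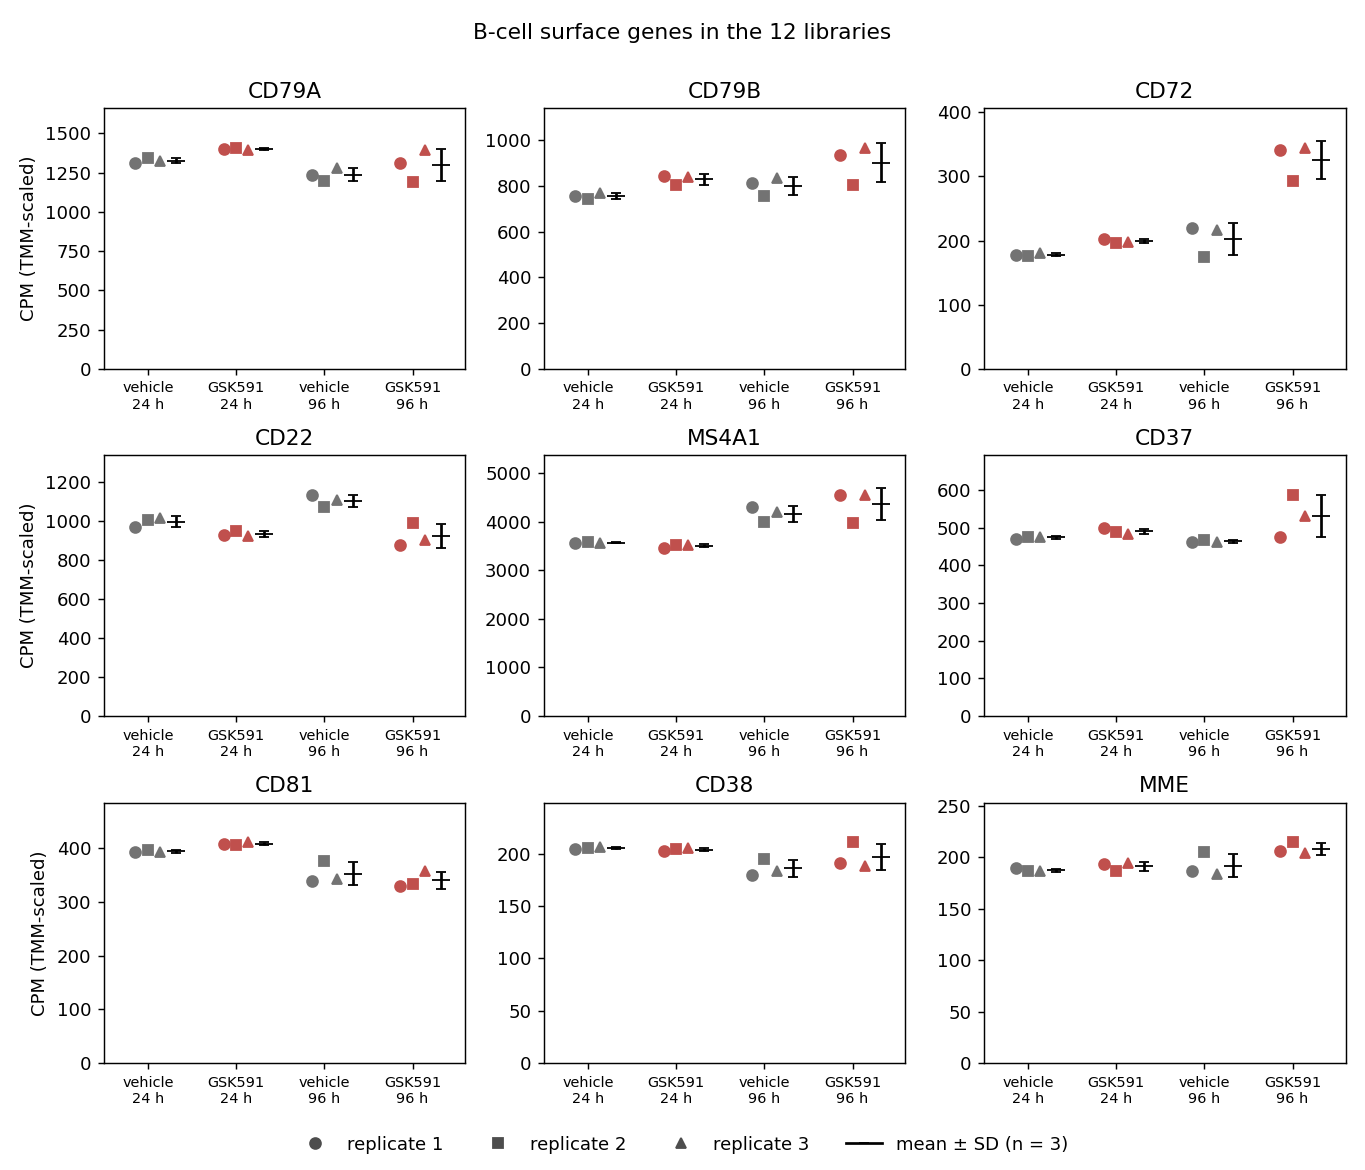
CPM of the 9 genes in each of the 12 libraries, by treatment and time, with 1 panel per gene on its own linear axis. Points are libraries, and horizontal bars with whiskers are group means and SD (n = 3). CD72 at 96 h, with treated libraries at 292 to 344 CPM and vehicle libraries at 174 to 219 CPM, has the largest log2 fold change of the 9 genes.

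MS4A1, the CD20 gene, was not called with treatment at either time. It read 3570.4, 3573 and 3572 CPM with vehicle and 3468, 3515 and 3523 CPM with GSK591 at 24 h. These groups did not overlap, yet the log2 fold change of -0.03 ± 0.02 did not pass the test (adjusted p = 0.321). The 96 h libraries read 4306, 3985 and 4201 CPM with vehicle and 4548, 3979 and 4546 CPM with GSK591. The groups overlapped, and the log2 fold change was 0.08 ± 0.07 (adjusted p = 0.39), or 0.10 ± 0.05 without both libraries numbered 2 (adjusted p = 0.133). The difference between times of 0.09 was not called (adjusted p = 0.363), and without both libraries numbered 2 it was 0.11 ± 0.04 and called (adjusted p = 0.0226).

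The tetraspanins CD37 and CD81 were not called at either time. CD37 read 470.02, 475 and 476 CPM with vehicle and 498, 489 and 483 CPM with GSK591 at 24 h, a log2 fold change of 0.05 ± 0.02 (adjusted p = 0.127). At 96 h it read 462, 468 and 461 CPM with vehicle and 475, 586 and 532 CPM with GSK591, and the treated value farthest above vehicle came from the library numbered 2. The log2 fold change at 96 h was 0.21 ± 0.08 (adjusted p = 0.0588), and 0.13 ± 0.05 without both libraries numbered 2 (adjusted p = 0.0442). CD37 groups did not overlap at either time. CD81 read 392, 398 and 394 CPM with vehicle and 408, 406 and 411 CPM with GSK591 at 24 h, again without overlap and with a log2 fold change of 0.05 ± 0.02 (adjusted p = 0.0968). Its levels at 96 h were 338, 377 and 343 CPM with vehicle and 329.6, 333 and 358 CPM with GSK591, and the groups overlapped. Its log2 fold change of -0.04 ± 0.06 (adjusted p = 0.632) became 0.01 ± 0.05 without both libraries numbered 2 (adjusted p = 0.799).

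CD38 and MME, the 2 surface enzymes, were not called at either time. CD38 lay between 202 and 206 CPM in all 6 libraries of 24 h, with a log2 fold change of -0.01 ± 0.02 (adjusted p = 0.812). At 96 h it read 179, 195 and 183 CPM with vehicle and 191, 211 and 189 CPM with GSK591, a log2 fold change of 0.10 ± 0.06 (adjusted p = 0.244), and 0.07 ± 0.04 without both libraries numbered 2 (adjusted p = 0.129). MME lay between 186 and 194 CPM at 24 h, with a log2 fold change of 0.03 ± 0.02 (adjusted p = 0.43). Levels at 96 h were 186, 205 and 184 CPM with vehicle and 206, 215 and 204 CPM with GSK591, with overlap through vehicle replicate 2. The log2 fold change of MME was 0.13 ± 0.06 (adjusted p = 0.0997), and 0.15 ± 0.04 without both libraries numbered 2 (adjusted p = 0.00487).

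Among the 9 genes at 24 h, CD79A, CD79B and CD72 were called higher and CD22 was called lower. Among all 13173 genes tested at that time, 7.44% were called higher and 7.29% lower, 14.7% in all. The groups did not overlap for 7 of the 9 genes, 5 higher and 2 lower with treatment, against 31.9% of all genes (15.7% higher and 16.2% lower). At 96 h, CD72 was called higher and CD22 lower. Of 13514 genes tested, 20.7% were called higher and 19.6% lower, 40.2% in all. The groups did not overlap for CD72 and CD37, both higher, and for CD22, which was lower, against 54.6% of all genes (25.0% higher and 29.7% lower). CD72 was the single gene of the 9 called for the difference between times, against 24.1% of 13665 genes (11.0% higher and 13.2% lower). For the difference, 1 of the 9, CD22, was lower at an unadjusted p under 0.05, and DESeq2 called none lower. The share of all genes at that unadjusted level was not counted. Without both libraries numbered 2, CD79B, CD72, CD37 and MME were called higher and CD22 lower at 96 h, and MS4A1, CD72 and MME were called higher and CD22 lower for the difference. In that setting 60.5% of all genes tested were called at 96 h and 43.8% for the difference, so the shares of the 9 genes lay near those of all genes.

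When all 12 libraries shared 1 estimate of spread, none of the 4 calls at 24 h passed the edgeR test (adjusted p 0.464 for CD22, 0.604 for CD79A, 0.403 for CD79B and 0.438 for CD72). At an unadjusted p under 0.05, 1 of the 9 was higher and none lower in that fit, and the share of all genes at that level was not counted. Of all genes tested, 29 were called there at 24 h. The common coefficient of variation that edgeR estimated was 2.35% in the 24 h fit, 8.19% in the 96 h fit and 5.9% over all 12 libraries. The shared estimate is thus wider than that of 24 h and narrower than that of 96 h. It also underlies the tests of the difference and of vehicle over time. The authors' deposited table gave log2 fold changes at 24 h of 0.15 for CD72 (adjusted p = 6.37e-06), -0.11 for CD22 (0.000887), 0.12 for CD79B (0.000973) and 0.06 for CD79A (0.0372). At 96 h the authors' deposited table gave 0.69 for CD72 (1.98e-10), -0.24 for CD22 (0.0133), 0.21 for CD37 (0.0536) and 0.19 for CD79B (0.0892).

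**Figure D2:**
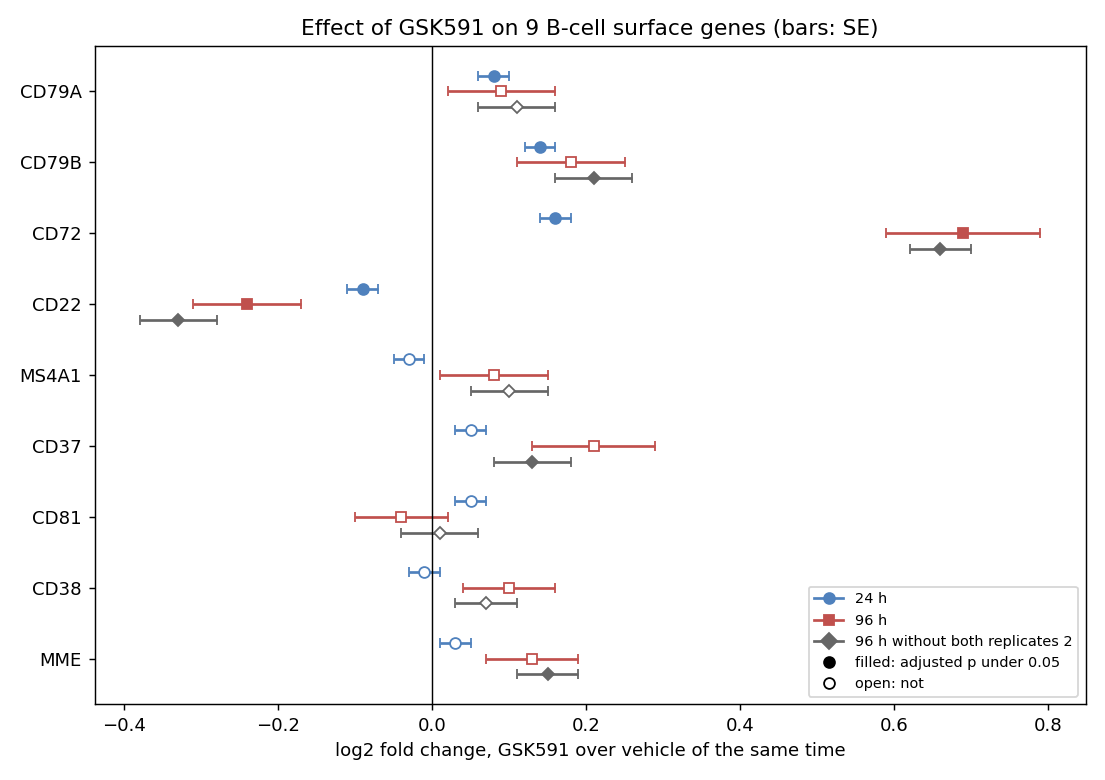
Log2 fold change of GSK591 over vehicle for the 9 genes at 24 h, at 96 h and at 96 h without both libraries numbered 2. Bars are standard errors, filled symbols passed the test, open symbols did not, and the vertical line marks no change. CD72 at 96 h lies at 0.69, and CD22 lies below 0 in all 3 sets.

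**Figure D3:**
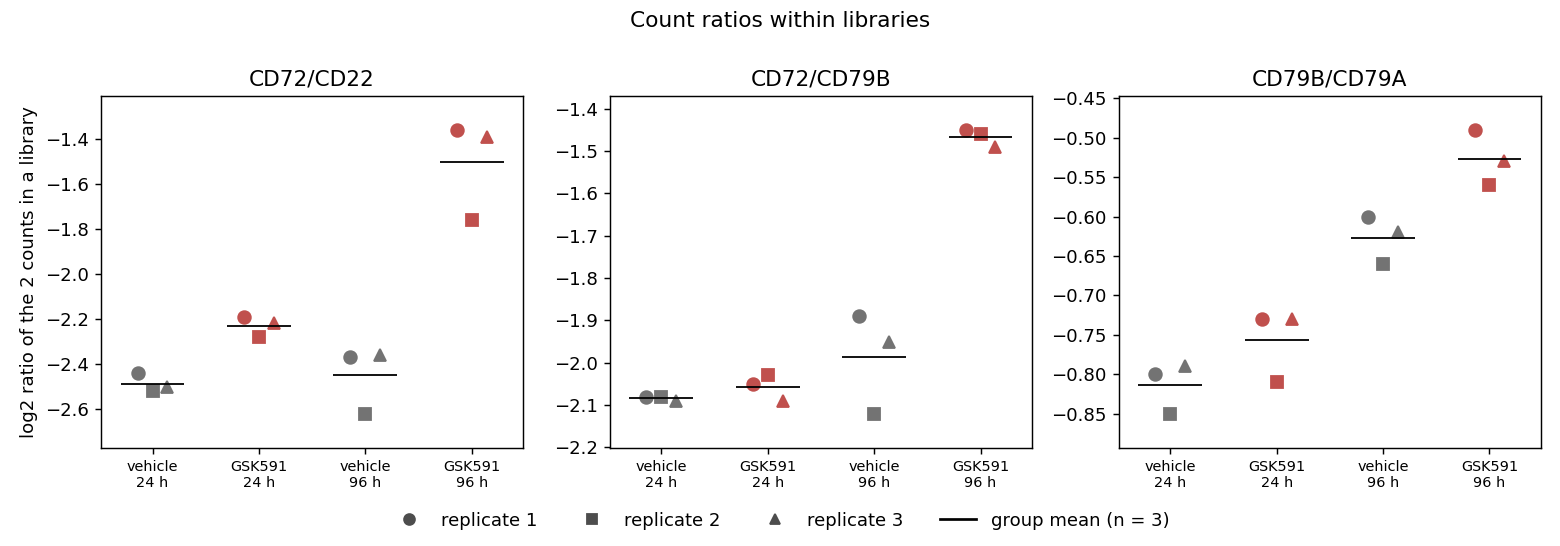
Log2 ratios of counts of 3 gene pairs (CD72 to CD22, CD72 to CD79B and CD79B to CD79A) within each of the 12 libraries, by group. Points are libraries and bars are group means. The pairs were chosen after the values were seen. The mean of CD72 to CD22 at 96 h is -2.45 with vehicle and -1.50 with GSK591.

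In vehicle alone, 4 of the 9 genes differed between 96 h and 24 h, and 47.7% of 13665 genes did (24.2% higher and 23.5% lower). The vehicle groups of the times did not overlap for 6 of the 9, 2 higher and 4 lower at 96 h, against 61.1% of all genes (30.8% higher and 30.3% lower). MS4A1 was higher at 96 h by 0.22 ± 0.05 log2 units (adjusted p = 0.00268) and CD22 by 0.15 ± 0.05 (adjusted p = 0.0187). CD81 was lower by 0.16 ± 0.05 (-0.16, adjusted p = 0.00965) and CD38 by 0.14 ± 0.05 (-0.14, adjusted p = 0.0183). In the main fits CD22 was thus higher at the later time in vehicle and lower with GSK591 at 96 h. At 96 h its treated mean of 923 ± 60.1 CPM (SD, n = 3) lay below the 998 ± 26.5 CPM of vehicle at 24 h. CD72 differed by 0.19 ± 0.08 (adjusted p = 0.0507). The times were deposited as separate tables, so time and table cannot be told apart. Without vehicle replicate 1 of 96 h, the single call left was that of MS4A1, and without vehicle replicate 3 of 96 h, MS4A1 and CD81 were left. The call of CD22 was also lost without vehicle replicate 1 of 24 h, and that of CD38 without vehicle replicate 2 of 24 h. With both libraries numbered 2 left out, the calls were MS4A1, CD22, CD72 and CD79B higher and CD79A, CD81 and CD38 lower, while 64.6% of all genes tested were called.

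Levels of different genes were compared per length of the principal transcript in GENCODE 29, which is another annotation than that of the counts, so close neighbours have no firm order. In vehicle at 24 h, CD79A held 1054 ± 11.9 CPM per kilobase (SD, n = 3) and MS4A1 1028 ± 0.323. CD79B followed with 594 ± 9.74, CD37 with 374 ± 2.58, CD22 with 305 ± 8.11 and CD81 with 259.5 ± 1.79 CPM per kilobase. CD72 held 87.4 ± 1.19, CD38 36.2 ± 0.178 and MME 33.3 ± 0.3 CPM per kilobase. In vehicle at 96 h MS4A1 stood first with 1198 ± 47.1 and CD79A second with 982 ± 33.7 CPM per kilobase. CD38 and MME overlapped at 96 h in both arms (31.6 to 34.4 against 32.7 to 36.4 CPM per kilobase with vehicle, 33.3 to 37.2 against 36.2 to 38.2 with GSK591). CD72 reached 160.1 ± 14.3 CPM per kilobase with GSK591 at 96 h, where its rank among 17577 genes was 281, against 541 with vehicle at 96 h. At 24 h the rank was 642 with GSK591 and 724 with vehicle. In all 4 groups it stood below CD81 and above CD38 and MME.

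Genes whose levels ran most alike were found by Pearson correlation over the 12 libraries, each centred on the mean of its time, among 8751 genes. The correlations share libraries and treatment and are given as descriptions. They include both libraries numbered 2 at 96 h. In these, CD38 and MME were the highest of each 96 h arm, and CD79A, CD79B and CD72 the lowest. Such shared deviations enter r, and r without these libraries was not computed. Among the 9 genes, CD79A and CD79B ran together (r = 0.91), as did CD38 and MME (r = 0.81) and CD72 and CD79B (r = 0.83). CD22 ran opposite to CD72 (r = -0.87) and to CD79B (r = -0.80). For CD81, r with the other 8 genes lay between -0.40 (CD72) and 0.13 (CD79A), with -0.32 for MS4A1. Over all genes, the gene most like MS4A1 was INPP5D (r = 0.96), the phosphatase SHIP-1, and the gene most like CD38 was AFF3 (r = 0.94). The nearest to CD79A was ASNA1 (0.96), to CD79B PPP1R18 (0.98), to CD22 AGXT2L2 (0.99), to CD81 RCC2 (0.97), to CD37 GHDC (0.94) and to MME FAM160B1 (0.94). For CD72 it was AKT1S1, with a log2 fold change of 0.15 at 24 h and 0.58 at 96 h.

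**Figure D4:**
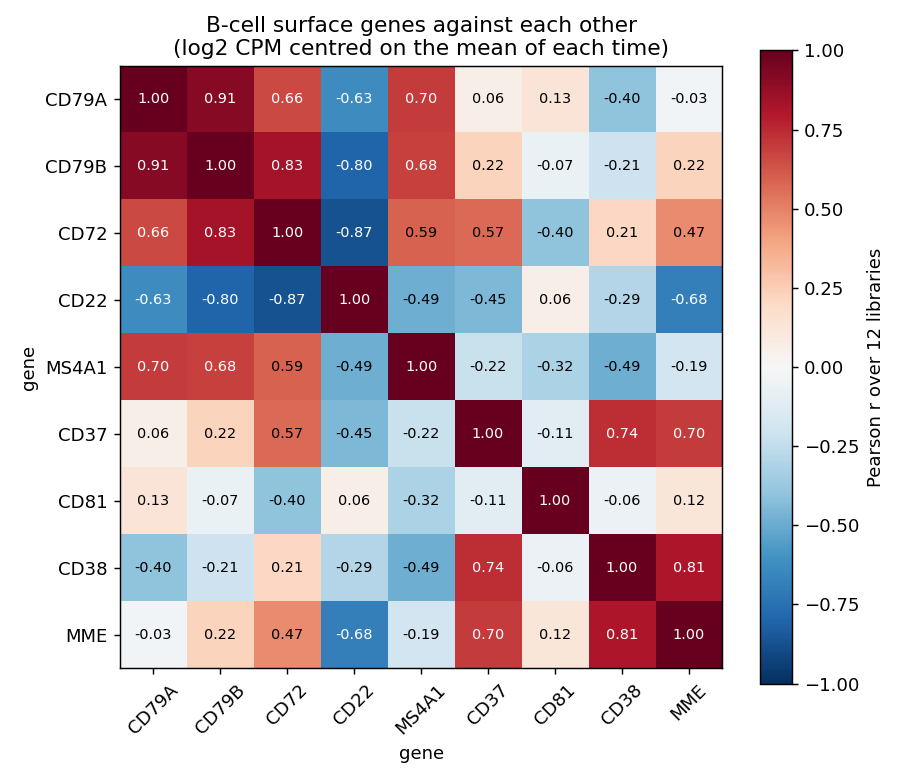
Pearson r between the 9 genes over 12 libraries, each centred on the mean of its own time, as a colour grid from -1 to 1. CD79A and CD79B (0.91) are alike, and CD22 is opposite to CD72 (-0.87).

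The other genes of the surface and of receptor signalling were counted in lists. The calls at 24 h rest on the spread of the 6 libraries of that time: with all 12 libraries in 1 edgeR fit, no gene of any list was called at 24 h, while 4 antigen receptor signalling genes were higher at an unadjusted p under 0.05. Other surface genes then had 2 higher and 1 lower at that unadjusted level, transcription factors 1 higher and 2 lower, and inhibitory receptors none. The share of all genes at the unadjusted level was not counted at either time, so such counts are not a result about a list. In the main fit of 24 h, 7.44% of all genes tested were called higher and 7.29% lower. Counts at 96 h are also given without both libraries numbered 2. With all libraries, calls at 96 h covered 20.7% (higher) and 19.6% (lower) of the genes, and 30.2% higher and 30.2% lower (60.5% in all) without these 2, so a higher count in that setting is not a result about a list. Of 17 inhibitory receptors and phosphatases tested, INPPL1, PTPN6 and FCRL2 rose and FCRLA and FCRL5 fell at 24 h, with a median log2 fold change of 0.02. At 96 h 8 rose and none fell by edgeR, by DESeq2 or at an unadjusted p under 0.05, with a median of 0.20. Leaving out both libraries numbered 2, 10 rose and 2 fell. INPPL1, the phosphatase SHIP-2, rose by 0.84 ± 0.08 and the Fc receptor-like gene FCRL2 by 0.51 ± 0.07 at 96 h. PTPN6, the phosphatase that CD72 and CD22 recruit, rose by 0.13 ± 0.04 at 24 h (adjusted p = 0.0161) and had a log2 fold change of 0.12 at 96 h (adjusted p = 0.237).

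Of 31 antigen receptor signalling genes, 10 rose and none fell at 24 h by edgeR or DESeq2 (median 0.07), and none was lower at an unadjusted p under 0.05. With library size as the only scaling 7 rose. The adaptor PAG1 rose by 0.14 ± 0.02 and the ubiquitin ligase CBLB by 0.15 ± 0.03. At 96 h 13 rose and LAT2 fell (median 0.17), and LAT2 was not called with library size as the only scaling. The count was 20 up and 2 down without both libraries numbered 2. The kinase BLK rose by 0.56 ± 0.06 and the lipid kinase subunit PIK3CD by 0.44 ± 0.07. LYN, which phosphorylates the receptor and its inhibitory partners, rose by 0.08 ± 0.02 at 24 h and 0.49 ± 0.08 at 96 h.

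Of 29 other coreceptor and B-cell surface genes, CD52, PTPRC, CD27, CD40 and SLAMF7 rose and SLAMF6 fell at 24 h (median 0.01). The median was -0.01 and 3 rose with library size as the only scaling. At 96 h 14 rose and 6 fell (median 0.19), and 16 rose and 8 fell without both libraries numbered 2. PTPRC, the phosphatase CD45, rose by 0.46 ± 0.07 and SLAMF1 fell by 0.38 ± 0.05. CR2, a complement receptor of B cells, fell at 96 h by 0.64 ± 0.22.

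Of 11 other tetraspanins at 24 h, CD63 rose (median 0.02), a call lost with library size as the only scaling. At 96 h TSPAN13, TSPAN3 and TSPAN17 of 12 rose (median 0.11), TSPAN13 by 0.89 ± 0.14, and without both libraries numbered 2, 6 rose and 1 fell. In the MS4A family, MS4A7 and MS4A14 had log2 fold changes of -0.10 ± 0.04 (adjusted p = 0.136) and 0.09 ± 0.09 (adjusted p = 0.529) at 24 h. With MS4A12 they rose at 96 h (median 0.74). MS4A12 passed the filter on low counts in the 96 h fit and not in that of 24 h, so its call is no added support. With at least 5 CPM in 3 samples, 2 MS4A genes were called at 96 h. Of 28 B-cell transcription factors, 7 rose and XBP1 fell at 24 h (median 0.04). At 96 h 12 rose and XBP1, IRF4, SPIB and LEF1 fell (median 0.18), and 14 rose and 4 fell without both libraries numbered 2. XBP1, a factor of antibody secretion, fell by 1.24 ± 0.13 and BACH2, a repressor of plasma cell genes, rose by 0.60 ± 0.06.

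In the list of surrogate light chain, J chain and receptor expression genes, 9 were tested. At 24 h 2 rose, IGLL5 among them, and MZB1 and FCRLA fell (median 0.06), and 4 rose at 96 h, VPREB1, VPREB3 and IGLL5 among them (median 0.17), with 7 up and 1 down without both libraries numbered 2. Of 5 surface peptidases and related ectoenzymes, ENPP3 rose at 24 h (0.33 ± 0.04) and 96 h (1.77 ± 0.14), and ECE1 fell by 0.15 ± 0.05 at 96 h. The median was -0.08 at 24 h and -0.13 at 96 h, and without both libraries numbered 2, 2 rose and 2 fell at 96 h. The median over all genes tested was 0 at both times, and the median of the 9 surface genes was 0.05 at 24 h and 0.10 at 96 h. The summed level of the plasma cell markers SDC1, PRDM1, TNFRSF17 and XBP1 was 77.4 to 80.4 CPM with vehicle and 72.6 to 74.7 CPM with GSK591 at 24 h, and 59.1 to 67.8 CPM with vehicle and 41.2 to 46.1 CPM with GSK591 at 96 h. Nearly all of this sum was TNFRSF17 (45 CPM with vehicle and 36 with GSK591 at 96 h) and XBP1 (16.6 and 6.9). SDC1 (0.387 and 0.213) and PRDM1 (0.19 and 0.253) were near 0, and PRDM1 went the other way. The summed level of the 4 germinal centre markers, MME among them, was 907 to 939.97 CPM with vehicle and 959 to 997 CPM with GSK591 at 24 h, and 949.7 to 969.9 CPM with vehicle and 1183 to 1238 CPM with GSK591 at 96 h. Mean levels at 96 h with vehicle and GSK591 were 92.9 and 213 CPM for MYBL1, 462 and 523 for BCL6, 212 and 269.8 for S1PR2 and 192 and 208 for MME. The part of these marker genes in the results was not tested.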

How the data were processed

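Per gene symbol, the authors deposited read counts that were not normalized, in 1 table for each time, and tables of log2 fold changes, average log2 CPM and p-values of GSK591 against vehicle, per the file headers. The tools were STAR, HTSeq and edgeR on hg19 (GRCh37), per the submitters' processing notes. Versions, strand setting, annotation and the deposited tables' test were not given in the sources used here, so overlapping and antisense genes cannot be told apart from a gene itself.

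Counts were fitted with edgeR 4.0.16 (R 4.3.3) by the quasi-likelihood test after filterByExpr and TMM scaling, two-sided, with Benjamini-Hochberg adjustment over all genes tested and a threshold of 0.05 ("called"; "rose" and "fell" are used of called genes). Each time was fitted on its 6 libraries. The difference between times and the change in vehicle were fitted on all 12 with 4 group means. The standard error is the log2 fold change divided by the root of F. Totals were 48.5 to 64.4 M counts (M, mega), and 548 M in vehicle replicate 1 at 96 h. Replicates differed beyond sampling noise in all 12 pairs (chi-square per degree of freedom 2.26 to 41.9). The fits were also run on simulated counts with 1 spread per gene and no outlying libraries. That run does not check how the libraries numbered 2 or a spread that differs between times affect the results.

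The 9 genes and the lists were chosen with earlier results of these data known. Named from each list were the 2 genes with the smallest p-value at each time, and for each of the 9 the gene most like it, among genes averaging 3 or more on the log2 CPM scale. Other list genes were named after their values were seen: partners of the 9 (PTPN6, LYN), CR2 and the called members of short counts. A few genes of the lists are left unreported. Alternatives were RLE factors, library size alone, no filter, at least 5 CPM in 3 samples, DESeq2 1.42.0, a replicate block, all 12 libraries in 1 fit, the deep library thinned, the libraries numbered 2 at 96 h left out, and each library left out in turn. Upstream sequences came from RefSeq (GRCh38.p14), where 5 of the 9 genes had an entry, and transcript lengths from GENCODE 29.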

Additional observations from a re-analysis of the deposited data

Results flagged for a closer look

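CD72 was singled out because its response to GSK591 differed between the times. The log2 fold change at 96 h exceeded that at 24 h by 0.52 ± 0.11 (adjusted p = 0.00524, edgeR quasi-likelihood test of the difference over 13665 genes). Of these genes, 24.1% were called for the difference, 11.0% of them all higher and 13.2% lower. Every treated library was above every vehicle library of its time, as for 15.7% of all genes at 24 h and 25.0% at 96 h. Without both libraries numbered 2 at 96 h the difference was 0.48 ± 0.04.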

How the results depend on the processing

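Over 612 values of the 9 genes under 21 alternatives, 555 kept direction and call, 16 lost a call, 29 gained one and 12 turned sign, none of these 12 called. CD72 was called at 96 h (0.59 to 0.75) and for the difference (0.41 to 0.59) under every alternative. With all 12 libraries in 1 fit, 0 of the 9 genes were called higher and 0 lower at 24 h, 29 genes in all. The calls at 24 h were then 0 in each list (other surface genes, inhibitory receptors, antigen receptor signalling, tetraspanins, transcription factors, surrogate light chain, surface peptidases). At 96 h that fit called 4 of the 9 genes higher and 1 lower, against 25.8% and 28.3% of all genes. With library size alone, the calls at 24 h were 0 tetraspanins, 5 transcription factors and 2 surface peptidases, 1 of the 9 genes was lower over time in vehicle, the difference of CD79A was 0.03 and the change of CD37 over time 0.03. Library size alone also split all calls at 24 h into 563 higher and 1220 lower (980 and 960 with TMM), over time in vehicle into 4167 and 2503 (3309 and 3207), and moved the median of all genes over time to 0.07. DESeq2 called 0 tetraspanins at 24 h and 2 of the 9 genes higher at 96 h, where it called 21.6% of all genes higher. With at least 5 CPM in 3 samples, 5 inhibitory receptors were called at 96 h and the difference of CD79A was 0.01. Without both libraries numbered 2 at 96 h, 4 of the 9 genes were higher at 96 h, 3 higher and 1 lower for the difference and 4 higher over time. Of all genes, 30.2% were then called higher at 96 h, 20.5% for the difference and 32.3% over time. The calls there were 8201 genes at 96 h (5437 with all), 6022 for the difference (3298), 22 antigen receptor signalling genes, 7 tetraspanins, 8 surrogate light chain genes and 4 surface peptidases. CD81 was then 0.01 at 96 h, the difference of CD79A 0.02 and the change of MME over time -0.02.

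Leaving out 1 library gave 980 to 2208 called genes at 24 h (7.37% to 16.6% of all genes) and 3438 to 7485 at 96 h (25.1% to 55%). For the difference it gave 1991 to 5712 (14.4% to 41.5%), and over time 5051 to 8026 (36.5% to 58.2%). Of the 9 genes, 3 were called higher and 1 lower at 24 h each time, against 3.52% to 8.41% and 3.81% to 8.2% of all genes. At 96 h 1 to 2 were higher and 0 to 1 lower, against 13.1% to 26.8% and 12% to 28.1%. For the difference 1 to 2 were higher and 0 to 1 lower, against 6.33% to 20.2% and 7.88% to 21.3%. Over time 1 to 3 were higher and 0 to 3 lower, against 18% to 29.8% and 18.5% to 28.5%. The calls at 24 h were 2 to 8 other surface genes, 0 to 4 inhibitory receptors (0 without GSK591 replicate 1), 7 to 11 signalling genes, 0 to 1 tetraspanins, 4 to 10 transcription factors, 2 to 4 surrogate light chain genes and 1 to 2 peptidases. At 96 h they were 12 to 23, 5 to 11, 9 to 20 (9 without vehicle replicate 3), 2 to 6, 6 to 18, 3 to 8 and 1 to 3 in the same order, and 2 to 3 MS4A genes. Signs turned for CD81 at 96 h without vehicle replicate 2 (-0.07 to 0.01 over all libraries left out), for the difference of CD79A without vehicle replicate 3 (0.01) or GSK591 replicate 2 (0.05) of 96 h (-0.06 to 0.05), for that of CD79B without vehicle replicate 2 (-0.01) or GSK591 replicate 3 (-0.02 to 0.11), and for MME over time without vehicle replicate 2 (-0.02 to 0.06). The cause was not tested.

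The labels do not say whether the replicate numbers pair the samples, and the main test treated them as unpaired. Correlations of same-numbered deviations were 0.08, 0.49 and 0.07 at 24 h, and 0.61, 0.37 and 0.04 at 96 h. Between different numbers they were -0.29 to 0.22 at 24 h and -0.51 to 0.29 at 96 h, so a partial pairing is possible. With the replicate number as a block, 2811 genes were called at 24 h, 6293 at 96 h, 4167 for the difference and 7043 over time. Of the 9 genes, 3 were then called higher at 96 h (CD79B, CD72 and CD37), against 23.6% of all genes. The block also gave 5 tetraspanins at 96 h and 2 surface peptidases at 24 h.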
